A study of Mus musculus with 12 samples.

Results

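The comparison described here is the deletion of Col17a1 in resting hair follicle stem cells (HFSCs): 1 microarray of unplucked HFSCs from Col17a1 conditional knockout (cKO) mice against 1 microarray of unplucked HFSCs from wild-type control mice, 2 of the 12 samples of the series. Of 34725 genes named on the array, 24066 were kept because their spots were well above background, by the scanner software's own call, on at least 1 of the 2 arrays. Levels are log2 processed intensities minus the 75th percentile of the array, so a level of 0 is that percentile, and a difference of 1 is 2-fold. With 1 array a side there is no replicate and no test. Every difference below compares these arrays and does not measure the spread between mice.

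The control mice were 12 weeks old, C57BL/6 and wild type, and had been injected with tamoxifen (2 mg, 5 days). The cKO mice were also 12 weeks old and injected with tamoxifen, carried a Col17a1 deletion made under the K14 promoter, and have no strain in the labels. That promoter is active in the basal keratinocytes of epidermis and follicle as well as in HFSCs. A further array, unplucked HFSCs of young wild-type C57BL/6 mice (8 weeks, no tamoxifen named), shows for each gene which of the other two stands apart, and unplucked HFSCs of aged mice (at least 22 months) are given beside it. A second pair of cKO and control arrays, of HFSCs sorted 3 days after the hair was plucked, shares no array with the unplucked pair. The labels do not say how many animals gave each sample, how far the deletion went or how long after tamoxifen cells were taken.

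COL17A1 spans the membrane at the hemidesmosome, the plaque that ties basal keratinocytes to the layer of matrix beneath them. There it binds integrin α6β4, plectin and the BP230 protein made from Dst, and reaches outside the cell toward the laminins of that matrix. HFSCs rest in the bulge of the follicle, are held quiescent in part by BMP signals, and depend on COL17A1 to stay there.

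The sequences behind the first genes are shown because each value on an array is the signal of 1 short stretch of the transcript. The probes for Col17a1, Id3 (a BMP target), Fosb (an AP-1 subunit) and Uhrf1 (a factor that copies DNA methylation in S phase, read by 2 probes) have 60 bases each. The first 30 bases of each are given 5′ to 3′, and no letter is capitalised.
Col17a1, from transcript base 5416: ggcacagttggtttttatttaagcactttc
Id3, from transcript base 338: tccgcatctcccgatccagacagctgagct
Fosb, from transcript base 3593: actgccgaccacaattcattgactccatag
Uhrf1, from transcript base 3430: tgtgtctcatggaaactaaaccatttacta
Uhrf1, from transcript base 985: agctatacggcaacatcaggctcttgaatg
On mm9 the whole probes lie at chr19:47720894-47720953 on the minus strand (Col17a1), chr4:135700075-135700249 on the plus strand (Id3) and chr7:19888168-19888227 on the minus strand (Fosb). The Uhrf1 probes lie on the plus strand at chr17:56462770-56462829 and chr17:56451668-56452321. The intervals of Id3 and of the second Uhrf1 probe are longer than 60 bases, as for probes that cross an intron.

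Col17a1 itself read 7.31 on the control, 7.01 on the cKO, 7.39 on the young and 6.87 on the aged array, a cKO minus control difference of -0.31. The probe lies far along the transcript, and the labels do not say which exons were deleted. Its signal therefore checks neither the genotype nor the extent of deletion. After plucking the difference was -0.43.

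Hemidesmosome genes were mostly within 2-fold. Of 10 genes listed, Col17a1 among them, 0 were at least 2-fold higher and 1 was at least 2-fold lower on the cKO array. The backgrounds are 17.7% of all genes kept for higher and 20.9% for lower. The median difference was -0.20, beside -0.13 over all genes kept. Dst was at 6.21 and 6.20 on the control and cKO arrays, and its other probes differed by 0.02, 0.43 and 2.58. Itga6, the α6 subunit, was at 4.27 and 4.44. Its partner Itgb4 was at 4.64 and 4.13. The laminin chain genes Lama3 and Lamb3 differed by -0.10 and -0.60. Krt5 and Krt14, the keratins of basal cells, differed by -0.12 and -0.28. The desmosome and adherens junction genes, which join keratinocytes to each other, were counted in a list that leaves out Dsg1b and Dsc1: 0 of 13 were 2-fold higher and 0 were 2-fold lower, and their median was -0.07. Dsc1, a desmocollin of the epidermal differentiation list, was not well above background on the cKO array, at least 5.32-fold lower, and Dsg1b, a desmoglein, was lower by 5.56 on the log2 scale.

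The exception in the hemidesmosome list was Cd151, a tetraspanin that partners laminin-binding integrins. It was at 4.24 on the control array, 2.73 on the cKO, 2.96 on the young and 2.34 on the aged array. The cKO array lay with the young and aged arrays, and the control stood apart. Cd151 was also lower on the cKO array after plucking, by 1.89 on the log2 scale (3.02 against 1.13). The plucked young and aged arrays read 2.26 and 2.42, so there the cKO array lay lowest. A second Cd151 probe went the other way in the unplucked pair, from 0.90 on the control to 1.75 on the cKO array.

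**Figure D1:**
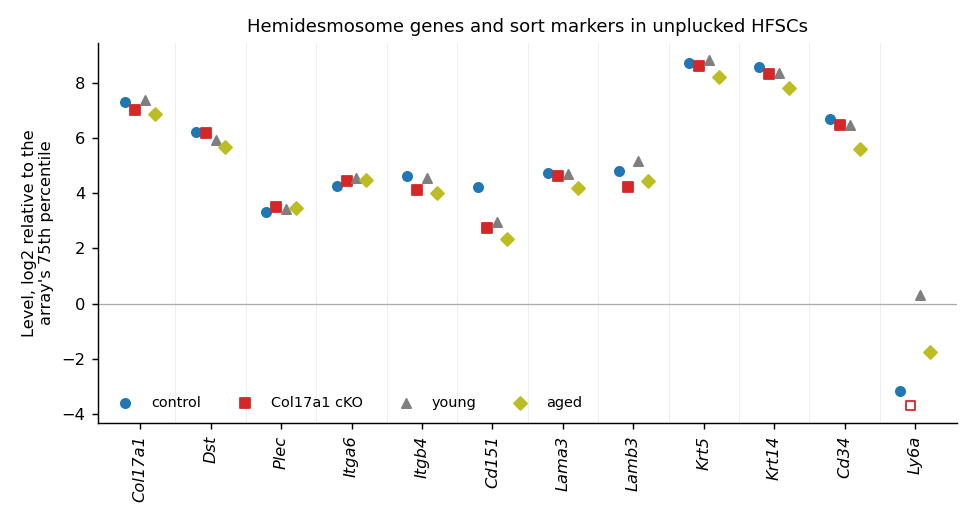
Levels (log2 relative to the array's 75th percentile) of 10 hemidesmosome genes and of the sort markers Cd34 and Ly6a on the unplucked control, cKO, young and aged HFSC arrays; each point is 1 array, and an open point was not well above background. All listed hemidesmosome genes but Cd151 (2.73 in cKO, 4.24 in control) lie within 2-fold, Lamb3 and Itgb4 with gaps of -0.60 and -0.51.

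Genes of the bulge were mostly level. The gate took CD34-high, ITGA6-high cells without SCA1, the product of Ly6a. Cd34 read 6.68 in control and 6.46 in cKO cells, and Ly6a -3.15 on the control array but was not well above background in the cKO. Lhx2 and Nfatc1, transcription factors of the bulge, differed by 0.00 and 0.02. Krt15 differed by -0.16, Sox9 by 0.17 and Lgr5 by -0.47. Of 30 HFSC and bulge genes, 3 were 2-fold higher and 3 lower, beside 17.7% and 20.9% of all genes kept. Their median was 0.01. Those higher were Npnt, Wif1 and Gli2. Tcf7l1, a repressor of Wnt targets in bulge cells, read -0.77 on the control array. It was not well above background on the cKO array, at least 4.69-fold lower. For such bounds the dim side is taken at the lowest level well above background on its array, or at its own level if higher. The plucked difference of Tcf7l1 was -0.60.

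Markers of other cells are given with their summed levels. Of 28 genes of epidermal differentiation 14, Krt1 and Ivl among them, were 2-fold lower on the cKO array, and 1 (Aloxe3) was higher. Over all genes kept 20.9% were lower and 17.7% higher. The list's median was -0.83. Of its 21 genes well above background on both arrays, 1 was higher and 8 were lower, with a median of -0.35. Over all such genes 16.0% were higher and 12.2% lower. Summed over the list, the linear level was 228 times the 75th percentile on the control array, 151 on the cKO, 261 on the young and 225 on the aged array. Krt1 read 1.33, -0.56, 3.71 and 2.67 on those arrays in turn, so control and cKO both lay below young and aged. Flg, the filaggrin gene, read 1.52, -0.31, 3.93 and 2.38, and its other 2 probes differed by 0.08 and 1.96 between cKO and control. After plucking the list had a median of -0.09.

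In bulk samples, fewer cells of a type and less RNA per cell cannot be told apart. For the counts of these lists the backgrounds are 17.7% of all genes kept for higher and 20.9% for lower. Myeloid genes went both ways. Of 12 genes of Langerhans and other myeloid cells, 3 were higher and 3 lower, and the summed level was 17.1 in control and 19.8 in cKO cells, with Cd207 not well above background on the cKO array. Of 8 T cell genes, 1 was 2-fold higher and 4 lower, with a median of -1.02 (0.60 after plucking), and the list summed to 6.73 in control and 4.30 in cKO cells (5.67 in young and 8.44 in aged). Of the 8, 4 were well above background on both arrays. Endothelial genes summed to 3.80 and 3.71, and fibroblast genes to 4.38 and 8.31. Melanocyte genes summed to 6.03 and 6.64, with Dct at least 14.7-fold higher on the cKO array and Pmel lower by 1.61. Erythroid and muscle genes summed to 1.70 and 6.51. Most of that gap was Alas2, an enzyme of haem synthesis in red cell precursors, not well above background on the control array and at least 50.7-fold higher on the cKO array. The part of these cells in the results was not tested.

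Genes of the cell cycle were higher more often than lower. Of 41 listed genes 38 were kept, and 22 were 2-fold higher and 6 lower on the cKO array, against backgrounds of 17.7% and 20.9%. The median was 1.17. Among the 29 that were well above background on both arrays, 18 were higher and 1 was lower, beside 16.0% and 12.2% of all such genes. In 9 of the 22 the control and young arrays were within 2-fold of each other and the cKO array stood apart: Aurka, Aurkb, Ccnb2, Ccne1, Cdc6, Foxm1, Mcm7, Mybl2 and Uhrf1.

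Genes of mitosis had the widest gaps. Aurka, a spindle kinase, was at -1.98 on the control, -2.05 on the young, -2.03 on the aged and 1.25 on the cKO array, 9.37-fold higher on the cKO than on the control array. Foxm1, the transcription factor that drives many G2 and M genes, read -3.69 on the control, not well above background on the young, -1.87 on the aged and -0.17 on the cKO array. The wild-type arrays were all below the cKO array for both genes. Ccnb2, a mitotic cyclin, read -3.43 on the control, -2.55 on the young and -0.82 on the cKO array. Ccnb1, its relative, was not well above background on the control array, -2.42 on the young, -3.02 on the aged and -0.14 on the cKO array, at least 15.6-fold higher on the cKO than on the control array. Its control array lay below young and aged as well.

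Genes of G1 and S phase differed in both directions. Ccne1, the cyclin of S phase entry, was at -1.30 on the control, -1.02 on the young, -1.64 on the aged and 0.66 on the cKO array. Mcm7, a subunit of the replicative helicase, was at 2.87, 2.84, 2.90 and 3.96 on the same arrays. Uhrf1 was at 1.58, 2.18, 1.88 and 3.84, and its second probe read -3.30 in control and 2.56 in cKO cells. The other helicase subunits were mixed: Mcm3 was higher by 3.17 with the control apart, and Mcm2, Mcm4, Mcm5 and Mcm6 differed by -0.98, -0.99, -0.48 and -0.61. Cdk4, the G1 kinase, was 2.64-fold higher with the cKO apart. The inhibitors Cdkn1c and Cdkn2b were not well above background on the cKO array, at least 5.56-fold and 6.03-fold lower. Cdkn1c read -0.34 on the control, -2.30 on the young and -1.98 on the aged array, and Cdkn2b -0.41 on the control and -2.66 on the aged array and not well above background on the young, so both were highest on the control.

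Well-known markers of cycling cells gave mixed values. Mki67 read 2.15 in control and 2.39 in cKO cells, and Birc5 2.62 and 2.70, both above young (0.45 and 1.37). Other probes were higher on the cKO array by 1.09 (Mki67) and by 0.90 and 1.59 (Birc5). Top2a and Cdk1 were brighter on the control array and not well above background on the cKO array, at least 2.20-fold and 2.57-fold lower. A second Cdk1 probe was higher on the cKO array by 1.26. Bub1 and Bub1b, of the spindle checkpoint, were at least 1.33-fold and 1.36-fold lower. For genes that were 2-fold higher, 4 of 5 other probes were higher too, 3 of them by 2-fold. Ube2c, a ubiquitin ligase of mitotic exit, gave 5.36 at one probe and 0.52 at the other.

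Counts were also taken by level, among genes well above background on both arrays. Where the mean level of the pair lay over -3 and up to -1, 8 of 10 cell cycle genes were 2-fold higher, beside 25.4% of all genes there. Over -1 and up to 1 the counts were 5 of 9, beside 19.4%. Over 1 and up to 3 they were 2 of 5, beside 11.1%, and over 3 and up to 5 they were 3 of 5, beside 3.40%. Set against the young array instead, 24 of 37 cell cycle genes were 2-fold higher on the cKO array and 3 lower (18.7% and 20.2% of all genes kept). Against the aged array they were 24 of 37 and 4 (15.3% and 22.5%). These counts share the cKO array with each other. Control against young, both wild type, gave 14 higher and 10 lower of 38 (21.5% and 18.9%). In the plucked pair, where the list summed to 599.6 in control and 587 in cKO cells against 94.4 and 131 without plucking, 2 of 38 genes were 2-fold higher and 1 lower on the cKO array. The backgrounds there are 11.6% and 12% of genes, and the list's median was -0.05.

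**Figure D2:**
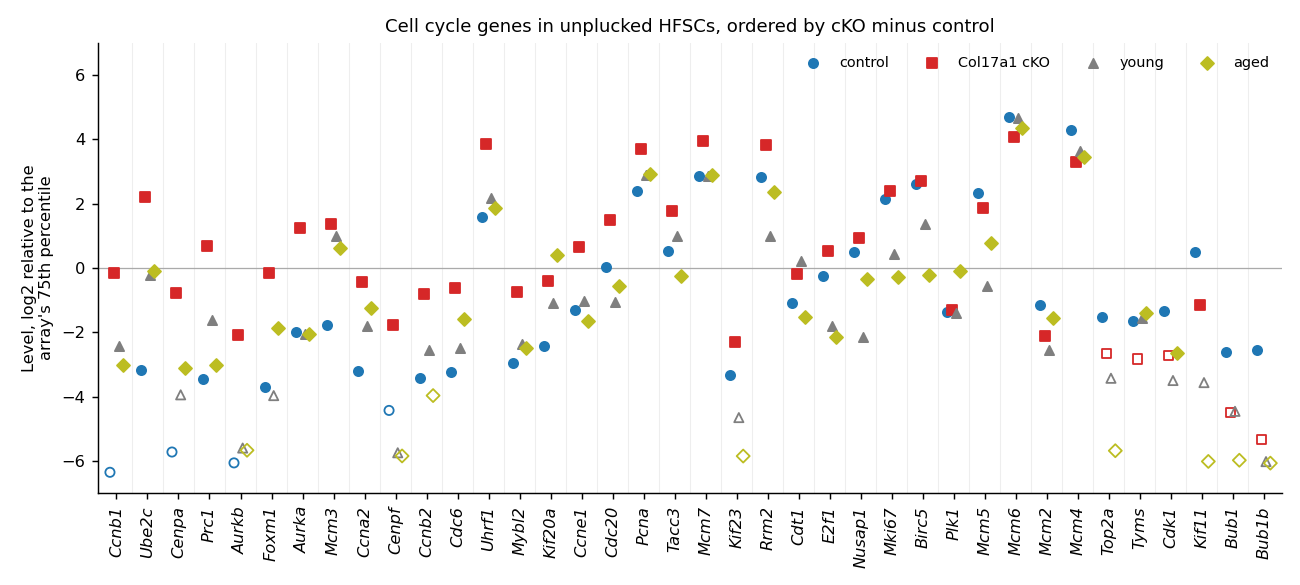
Levels (log2 relative to the array's 75th percentile) of the 38 cell cycle genes kept, ordered from the highest to the lowest cKO minus control difference, on the 4 unplucked HFSC arrays; each point is 1 array, and an open point was not well above background. The cKO squares lie above the other 3 arrays for Aurka (1.25 on cKO) and Uhrf1 (3.84), and overlap with them at the right, where Bub1b was not well above background on the cKO array.

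The sequences before the start sites of 3 cell cycle genes that stood apart on the cKO array are shown because such genes often share a CCAAT box, bound by NF-Y, and some a CHR element, bound by the DREAM and MuvB complexes. Each is the 250 bases upstream of the RefSeq start (GRCm38.p6), 5′ to 3′ along the gene. Capitals mark CCAAT boxes (CCAAT or its reverse ATTGG) and CHR elements (TTTGAA, its reverse TTCAAA, or TTCGAA), searched on both strands. The motifs do not overlap each other in these sequences.
Aurka, chr2:172370571-172370820, minus strand: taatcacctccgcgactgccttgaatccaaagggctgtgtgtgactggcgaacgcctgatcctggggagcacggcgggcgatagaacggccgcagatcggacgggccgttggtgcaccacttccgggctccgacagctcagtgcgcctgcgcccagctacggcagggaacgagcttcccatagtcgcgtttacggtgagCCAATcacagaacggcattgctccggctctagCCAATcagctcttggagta
Ccnb2, chr9:70421555-70421804, minus strand: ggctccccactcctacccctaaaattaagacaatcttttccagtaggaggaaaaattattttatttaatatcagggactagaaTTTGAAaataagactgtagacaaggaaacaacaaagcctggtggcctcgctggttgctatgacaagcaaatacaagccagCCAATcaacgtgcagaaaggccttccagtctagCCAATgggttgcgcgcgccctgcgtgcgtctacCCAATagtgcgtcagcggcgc
Uhrf1, the second of 2 RefSeq starts, chr17:56304063-56304312, plus strand: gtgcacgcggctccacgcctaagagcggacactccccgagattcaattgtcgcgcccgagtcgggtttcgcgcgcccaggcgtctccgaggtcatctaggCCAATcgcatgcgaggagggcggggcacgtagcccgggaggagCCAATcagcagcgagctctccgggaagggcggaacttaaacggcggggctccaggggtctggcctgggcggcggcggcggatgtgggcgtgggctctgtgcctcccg
Aurka holds 2 CCAAT boxes, Ccnb2 3 and this start of Uhrf1 2. Of 21 promoters matched for the cell cycle genes that were 2-fold higher, 17 held a CCAAT box and 5 a CHR element. Of 17 promoters of the other cell cycle genes, 11 held a CCAAT box and 7 a CHR element. Over all 32851 promoters of the table the shares were 33.8% and 17.1%. A match is a run of letters and does not show that a factor bound there.

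Other genes of the basement membrane differed by large amounts in both directions. Of 15 genes kept, 8 were 2-fold higher and 3 lower, beside 17.7% and 20.9% of all genes kept. The list's median was 1.29. Lama5, a laminin chain of the follicle, read 3.06 on the control, 2.80 on the young, 3.36 on the aged and 4.66 on the cKO array, and stood apart on the cKO array. Npnt, the nephronectin of the bulge basement membrane, read 2.02 in control and 3.95 in cKO cells, but 4.41 on the young array, so the control stood apart. Frem2, Hspg2 and Lamc1 were likewise higher by 2.16, 1.29 and 2.35 with the control apart.

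The 2 chains of the type IV collagen trimer went opposite ways. Col4a1 read 2.00 on the control, 0.15 on the cKO and -0.06 on the young array, and Col4a2 -0.32, 1.70 and 0.45. Their genes lie side by side and share a promoter region. Lamb1 read 0.92 on the control array and was not well above background on the cKO array, at least 15.2-fold lower, and Lamb2 was lower by 1.63. After plucking 0 of 15 basement membrane genes were 2-fold apart in either direction, and the median was -0.02.

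Integrins other than α6β4 differed in both directions. Of 10 kept, 3 were 2-fold higher and 4 lower, beside 17.7% and 20.9% of all genes kept. Itga2, a collagen-binding subunit, was at -1.04 on the control, -0.24 on the young, -0.27 on the aged and 0.81 on the cKO array. In the plucked pair it was also higher on the cKO array (-1.24) than on the control (-2.47). The plucked young and aged arrays read -1.12 and -1.35, so the control lay lowest there. Itga3, a laminin-binding subunit and partner of CD151, was at 2.18 on the control, 0.94 on the young, -0.81 on the aged and -0.32 on the cKO array. After plucking it was at 0.00 in control and -1.51 in cKO cells. Itga5, a fibronectin receptor, was not well above background on the control array and at least 8.60-fold higher on the cKO array, and after plucking it was not well above background on either array. Itgav was lower by 1.12, and its other probe by 1.17.

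Of the BMP targets, Id3 was lower on the cKO array and the other 4 kept genes lay within 2-fold. Of 7 listed genes 5 were kept (Smad6 and Bambi were not well above background on either array), and all 5 were below the control, 1 of them by 2-fold, a share near the 20.9% of all genes. The median was -0.63, and that of cKO minus young was 0.31. Id3, an inhibitor of basic helix-loop-helix factors, was at 3.05 on the control, 2.51 on the young, 2.15 on the aged and 0.87 on the cKO array, 4.55-fold lower on the cKO than on the control array. All 3 wild-type arrays lay above the cKO array. Id1 was at 4.30 on the control, 3.67 on the cKO, 2.34 on the young and 2.33 on the aged array, so its cKO level lay above young and aged. Smad7, a feedback inhibitor, was at 1.97, 0.99, 0.63 and 0.52 on the same arrays, and Id2 and Id4 differed by -0.05 and -0.28.

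The same 5 genes were lower on the cKO array after plucking, with a median of -1.02. Id3 read 0.33 in control and -1.24 in cKO cells, and Id1 and Smad7 were lower by 1.02 and 1.68. With Id1, Id3 and Smad7, 3 of 5 were 2-fold lower in that pair, beside a background of 12%. Bmp4, a ligand, read 2.35 on the control array, -2.63 on the cKO, -1.74 on the young and -1.86 on the aged array, so the control stood apart. After plucking Bmp4 was higher on the cKO array, by 3.90.

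Some early response genes, AP-1 subunits among them, differed in both directions. Fosb was at 3.07 on the control, 2.24 on the young, 3.37 on the aged and 5.41 on the cKO array, 5.06-fold higher on the cKO than on the control array. After plucking it was at 0.32 in control and 2.39 in cKO cells, and at 2.98 and 4.34 on the plucked young and aged arrays. Fosb was thus higher on the cKO array of each pair, but after plucking the cKO array lay below young and aged. Jun was at 1.83, 2.13, 1.74 and 3.54 on the control, young, aged and cKO arrays, and was level after plucking (0.10). Junb was higher by 1.83 with the control apart. Atf3 and Nr4a1 were higher by 1.23 and 1.57 with the cKO apart. Fosl1, also an AP-1 subunit, and Ier2 were not well above background on the cKO array, at least 2.38-fold and 2.12-fold lower, and Egr2 was lower by 1.98 with the control apart. The list also holds genes that cell dissociation is known to induce. It did not move as a whole: of 23 genes 5 were higher and 4 lower, beside 17.7% and 20.9% of all genes kept. Its median was -0.26. Fos, Egr1, Dusp1 and Jund differed by 0.69, -0.34, 0.16 and -0.22.

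**Figure D3:**
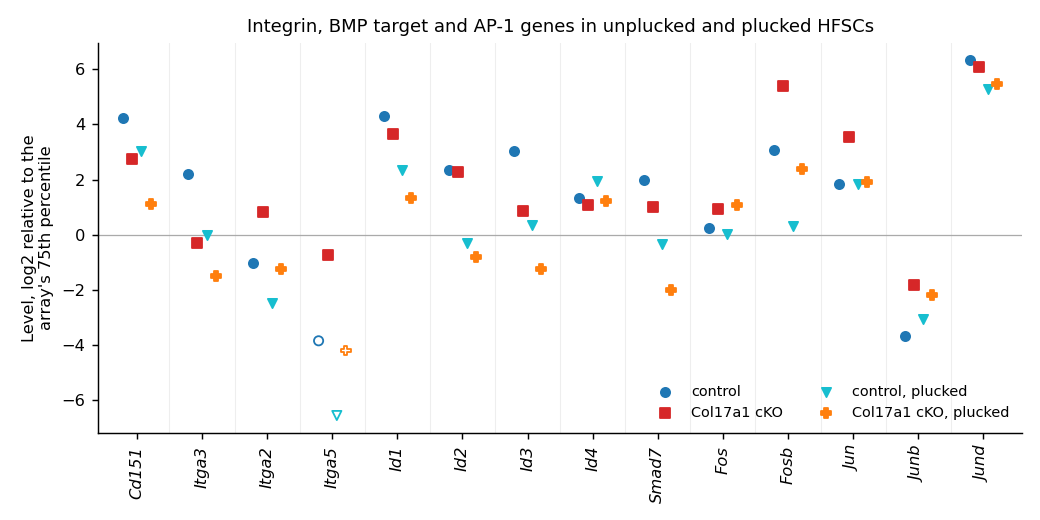
Levels (log2 relative to the array's 75th percentile) of integrin-related, BMP target and AP-1 genes on the control and cKO HFSC arrays without and after plucking; each point is 1 array, and an open point was not well above background. Cd151, Itga3 and Id3 were lower and Itga2 and Fosb higher on the cKO array in both pairs. Id3 was 0.87 against 3.05 unplucked and -1.24 against 0.33 plucked. Most list members well above background on all 4 arrays did not repeat. Of 74 that were 2-fold higher unplucked, 2 were 2-fold higher and 5 were 2-fold lower after plucking. Of 43 that were 2-fold lower, 4 were 2-fold lower and 4 were 2-fold higher after it. Over all genes so measured, 279 of 2607 higher and 232 of 2113 lower repeated.

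Genes of the hair germ and the growing follicle were lower more often than higher. Of 16 kept, 0 were 2-fold higher and 7 lower, beside 17.7% and 20.9% of all genes kept, and the median was -0.96. Of these 16, 7 were well above background on both arrays, 1 of them 2-fold lower (12.2% of all such genes were), with a median of -0.72. The summed level of the list (linear, in units of each array's 75th percentile) was 68.2 in control, 37.3 in cKO, 38.5 in young and 34.4 in aged cells, so the control stood above the other 3. Msx2, a homeobox gene of the hair matrix, was at 4.23 on the control, 3.48 on the young, 3.14 on the aged and 1.78 on the cKO array. Krt35, a hair cortex keratin, read 0.43 on the control array and was not well above background on the cKO, young or aged array. After plucking the list's median was 0.11.

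Other pathways gave counts in both directions. The backgrounds are 17.7% of all genes kept for higher and 20.9% for lower. Of 16 TGF-beta genes 2 were higher and 1 lower, of 11 Notch genes 2 and 1, of 13 Wnt and hedgehog targets 4 and 2, of 17 p53 targets 4 and 2, and of 16 interferon genes 5 and 5. Smad3 was higher by 1.83 with the cKO apart, and Tgfbr2 lower by 2.37 with the control apart, while a second Tgfbr2 probe was higher by 1.16. Nrarp, a feedback target of Notch, read -0.52 on the control array and was not well above background on the cKO array, at least 5.58-fold lower. After plucking it was lower on the cKO array (2.07) than on the control (3.17), by 1.10. The plucked young and aged arrays read 2.05 and 2.90, so the cKO array was level with young there. Of 13 proteases and inhibitors, Plat and Plau, the plasminogen activators, were higher by 1.87 and 1.13 with the cKO apart. Of 16 polarity genes 1 was higher and 2 lower, and Llgl2 was lower by 3.88 with the control apart. Genes of steady housekeeping were level: 0 of 25 cytosolic ribosomal protein genes were 2-fold apart, with a median of -0.19.

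**Figure D4:**
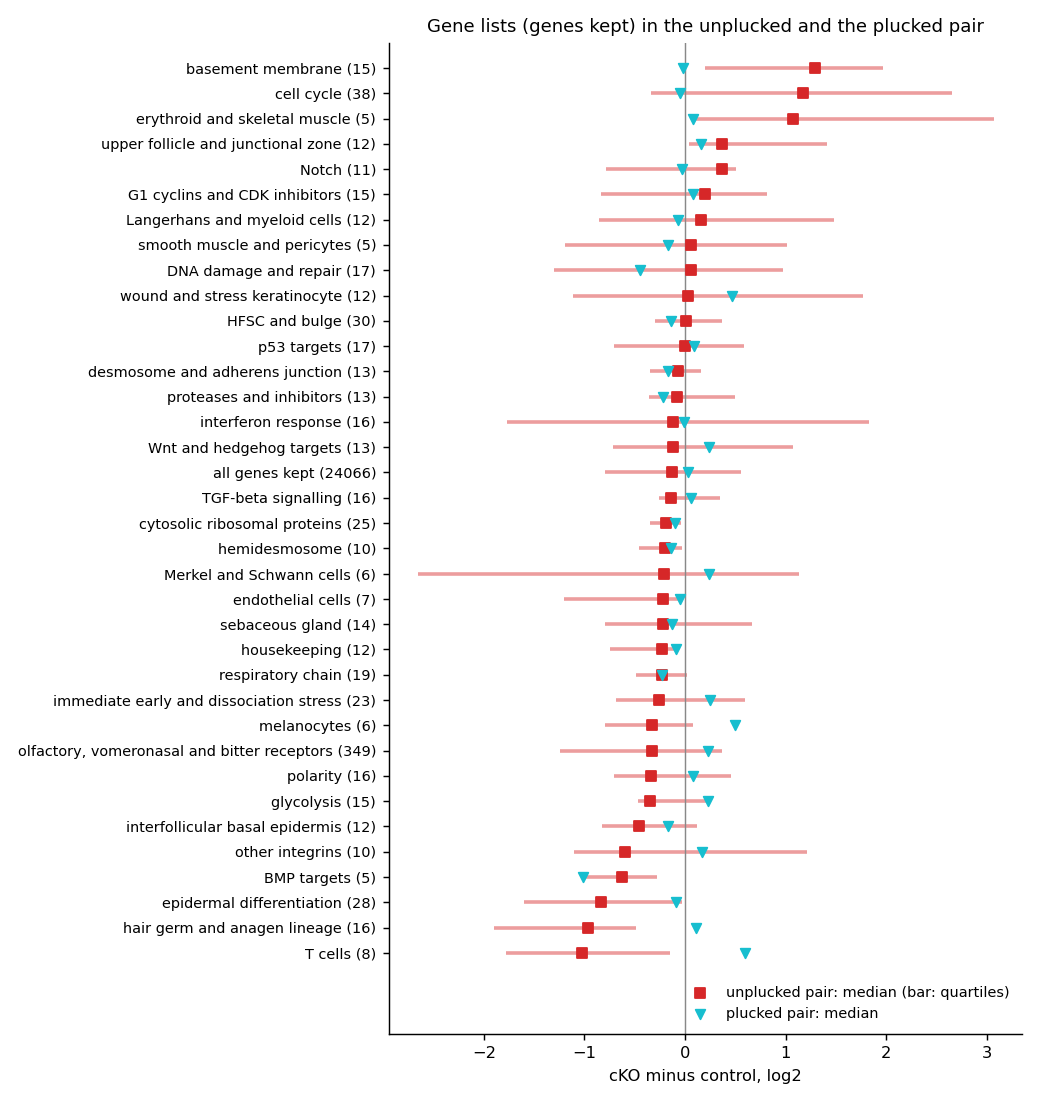
Median cKO minus control difference (log2) of each gene list with at least 5 genes kept (number kept in parentheses), in the unplucked pair (squares, with bars from the first to the third quartile) and the plucked pair (triangles). Basement membrane (1.29) and cell cycle (1.17) genes have high unplucked medians and plucked medians near 0 (-0.02 and -0.05), while BMP targets are below 0 in both (-0.63 and -1.02).

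Across all genes the arrays differed widely. The cKO array exceeded the control 2-fold in 4250 genes (17.7%) and lay 2-fold below it in 5019 (20.9%). Among the 17704 genes well above background on both arrays the counts were 2826 and 2168. The control array had 60.0% of its spots well above background and the cKO array 49.7%, so 4942 genes were dim on the cKO array alone and 1420 on the control array alone. For the dim side a lower bound was used, and 960 of the 2851 genes measured 2-fold lower with a dim cKO side were 2-fold lower by it. A dim control side says little by this measure: all 1420 such genes were 2-fold higher by it, and the lowest level well above background was itself over 2-fold lower in control (-4.10) than in cKO cells. Receptors of smell and bitter taste, used mainly in sensory tissue, were kept in 349 cases, and 63 were higher and 108 lower.

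The young array placed each of these genes. Of the 4250 higher on the cKO array, the cKO array stood apart from control and young in 1456 and the control array stood apart from cKO and young in 1285. In 570 the young array lay between them and 2-fold from both, in 550 it lay 2-fold beyond both on one side, and in 389 it was within 2-fold of both. Of the 5019 lower, the cKO array stood apart in 1422 and the control array in 1939. The young array was itself not well above background in 702 of the 1456 and 2 of the 1285. Among the lower genes it was so in 143 of the 1422 and 1117 of the 1939. For those genes the placement rests on a young value not well above background. The young and aged arrays were hybridised on a slide and scan of their own, and the control, cKO and plucked cKO and control arrays shared the other slide. Slide, age, tamoxifen and the young array itself cannot be told apart in this check.

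Pairs of wild-type arrays were set beside the pairs with cKO. Of genes well above background on both arrays of a pair, 28.2% were 2-fold apart between cKO and control, 30.6% between control and young, 28.2% between cKO and young, 25.4% between cKO and aged, 28.3% between control and aged and 20.1% between aged and young. These pairs share arrays with each other. In the plucked pair of cKO and control, which shares none, the share was 16.1%. Between cKO and control the share was 34.3% at mean levels over -3 and up to -1, and 38.1% over -1 and up to 1. At higher levels it fell, to 9.86% over 3 and up to 5, and 1.35% over 5.

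**Figure D5:**
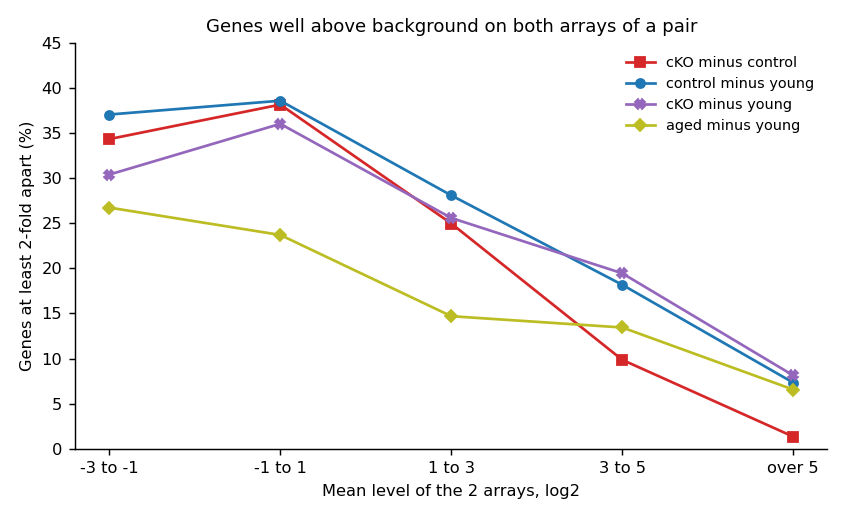
Share of genes at least 2-fold apart (percent) against the mean level of the pair (log2 relative to the 75th percentile), for pairs of unplucked HFSC arrays; genes were well above background on both arrays of a pair, and mean levels of -3 or less are not drawn (98 genes with 36.7% apart for cKO minus control, 734 with 9.13% for control minus young). Between cKO and control the share is 34.3% in the lowest bin drawn and 1.35% over 5, and the control minus young line (37.0% to 7.33%) lies above it in every bin drawn.

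The differences were also read at second probes and in the plucked pair. Of 635 genes that were 2-fold higher and had a second probe well above background on both arrays, 64.4% had the same sign at it, 38.3% were 2-fold higher at it and 14.0% were 2-fold lower. Of 572 that were 2-fold lower, 59.8% had the same sign. Over all 4554 genes with such a probe, 58.9% agreed in sign. Of 788 genes higher with the cKO apart, 13.5% were 2-fold higher and 8.88% 2-fold lower in the plucked pair. Of 691 lower with the cKO apart, 10.9% were 2-fold lower and 7.53% higher there. Of all 2607 genes higher without plucking, 279 were 2-fold higher and 316 2-fold lower after it. Over all 17228 genes well above background on the 4 arrays, 6.43% were 2-fold higher and 6.61% 2-fold lower in the plucked pair.

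The widest single differences with the cKO apart were in genes of modest level. Cdkn3, a phosphatase of the cell cycle, was at -3.67 on the control, -2.83 on the young, -3.95 on the aged and 1.88 on the cKO array, 47.0-fold higher on the cKO than on the control array, and was level after plucking (0.06). Evc, of hedgehog signalling in the cilium, was higher by 5.01. Sass6, which starts centriole assembly, was higher by 4.53, and by 1.55 after plucking. Has3, a hyaluronan synthase, and Nr3c2, the mineralocorticoid receptor, were higher by 4.72 and 4.44, and lower after plucking. Csf3, the granulocyte growth factor G-CSF, was not well above background on the control array and at least 33.7-fold higher.

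The widest falls included Dsg1b, a desmoglein, which was at 3.02 on the control, 2.21 on the young, 1.76 on the aged and -2.54 on the cKO array. Aktip was at 3.80 in control and -1.13 in cKO cells. Tfe3, a transcription factor of lysosome genes, was at 2.63, 2.83, 2.46 and -2.06 on the control, young, aged and cKO arrays, and its second probe was lower by 1.87. Skint3, an immunoglobulin-like gene of keratinocytes, was lower by 4.40. In the plucked pair Dsg1b, Aktip, Tfe3 and Skint3 differed by -0.68, -0.75, -0.83 and -0.64. Wars, a tRNA synthetase, showed the control array alone: it read 6.24 there and 0.21, 0.95 and 0.86 on the cKO, young and aged arrays.

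A further count took 7323 genes well above background on every unplucked HFSC array, with a mean level over 1 across them. Among these, the cKO array was 2-fold above all 3 other unplucked arrays in 121 and below all 3 in 187. The control array was so in 182 and 175, the young array in 100 and 124 and the aged array in 31 and 87. Of the cKO genes, 104 above and 154 below had a symbol in the gene table. After plucking 50 of those 104 were higher, beside 9136 of all 17228 genes, and 5 were 2-fold higher: Fosb, Zfp574, Prpf40b, Tmem141 and Cdipt. Of the 154, 97 were lower, beside 8092 of all 17228 genes, and 13 were 2-fold lower, and these included Id3, F3 (tissue factor), Diaph2 (an actin-nucleating formin), Polr1c (a subunit of RNA polymerases I and III) and Rps6ka3 (the kinase RSK2). F3 read 2.26 in control and -0.08 in cKO cells, and 2.66 and 1.55 after plucking. This check was added after the values had been seen.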

How the data were processed

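Per the file headers, the arrays (1-colour, Cy3) were read with Feature Extraction 10.7.3.1 (protocol GE1_107_Sep09), and the deposited values are spot intensities on a linear scale, background-subtracted by that software. Per the labels' protocols, cDNA was amplified from nanogram amounts of RNA with a whole-transcriptome kit, which can widen differences of low genes. The authors' deposited value table holds log2 values; differences between its columns matched the scanner values within 0.02 in 100% of genes. Its centring and scale are not given in the sources used here, and its column medians were 0.16 (cKO) and -0.02 (control).

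Control and outlier spots were left out. Each probe's level is the mean over its spots of log2 processed intensity less the 75th percentile of its array. Of 55629 probes, 28329 were named through the RefSeq gene table, and the rest kept the name in the files. Where a gene had several probes, the one brightest on average across the 12 arrays stood for it. An array "stood apart" when it was at least 2-fold from the young array while the other was within 2-fold of it. For the lower bounds, a probe not well above background on 1 array was set to the lowest level well above background there. Where its own level was higher, that level was kept. Number of arrays limits the precision: each group had 1 array, so no p-value was computed. Repeat spots of a probe had a median SD of 0.161 (control) and 0.136 (cKO).

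The named genes were Col17a1 and the hemidesmosome genes, the sort markers, the widest differences by which array stood apart, and up to 5 members of each of 37 lists. The comparison, lists and named genes were chosen with earlier results of these data known; list members named beyond that rule define their list or are given for contrast, and were chosen after their values were seen. Alternatives changed the background correction and scaling (normexp with offset 50 and quantile scaling in limma 3.58.1, R 4.3.3), the centring, the value table, the filter, the probe and the third array. The coding of the rule for which array stands apart was checked on simulated data, in which few genes changed and none was dim. That check does not show how often the rule errs on these arrays. Python 3.11.15 with pandas 2.3.3 was used, and matplotlib 3.10.9 drew the plots.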

Additional observations from a re-analysis of the deposited data

Results flagged for a closer look

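The following named genes were at least 2-fold apart in opposite directions in the unplucked and the plucked pair; with 1 array per group the difference between the pairs was not tested. Higher on the cKO array without plucking and lower after it were Has3 (4.72 and -2.58), Nr3c2 (4.44 and -2.15), Rnf41 (3.86 and -3.18), Sptlc3 (4.98 and -1.20), Ereg (1.79 and -1.44), Plat (1.87 and -1.69), Plau (1.13 and -1.77) and Mylpf (3.07 and -1.80). Lower without plucking and higher after it were Bmp4 (-4.98 and 3.90), Ttc19 (-4.26 and 1.25), Otulin (-3.75 and 1.18) and Llgl2 (-3.88 and 1.09). Over all genes kept in both pairs, 630 of 3670 genes 2-fold higher without plucking were 2-fold lower after it, and 565 were 2-fold higher in both. Of 4196 genes 2-fold lower, 613 were 2-fold higher after plucking and 685 lower in both.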

How the results depend on the processing

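With normexp and quantile scaling the counts were 2312 higher and 1922 lower, with the cKO apart in 944 and 560 and the control apart in 657 and 718. That setting shifted the median of all genes by 0.11 and put 54.6% of the 2-fold differences on the higher side, beside 45.9% in the counts reported. With genes well above background on both arrays the counts were 2826 and 2168 (56.6% higher). The cKO stood apart in 863 and 697 and the control in 974 and 712. Among genes higher on the cKO array the control thus stood apart more often than the cKO. In the counts reported the order was the reverse, 1285 against 1456. With no filter 9081 were higher, and 62.3% of differences were higher. With the dim side at its bound, an alternative added after seeing the data, 3128 were lower, with the cKO apart in 935 and the control apart in 1223, and 57.6% of differences were higher. Of 183 differences of named genes, 165 moved by more than the spread of repeat spots (SD of a difference 0.21) under normexp and quantile scaling and 66 with the dim side at its bound, with no change of sign. Counted on its own, the median over probes moved 51 of the 183 with no change of sign. Taking the median over a gene's probes turned the sign of Slc24a2 (-0.56), Tbc1d32 (0.67), Itgb6 (1.35), Tcf7 (0.27) and Scd3 (0.94). The causes were not tested beyond what each setting changes by its construction. The medians of the cell cycle, basement membrane and BMP target lists kept their sign under all settings (0.88 to 1.26, 0.91 to 1.40 and -0.63 to -0.28). Those of epidermal differentiation and the hair germ were -0.36 and -0.46 with the dim side at its bound. No paired analysis was possible because each group has 1 array and no result comes from a test.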
